A study of Mus musculus with 2 samples.

Results

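Macrophages rich in the transcript Spp1 were picked out of 2 single-cell RNA libraries of mouse tumours and set against macrophage-type cells of the same tumours that held almost none of it. The tumours were grown under the skin of C57BL/6 mice from MC38 cells, a mouse colon adenocarcinoma line. One group received a pool of MC38 cells transduced with a lentivirus carrying SPP1 and the other a pool transduced with the vector, and SPP1 protein in the cells is stated to have been seen by Western blot. Anti-PD-1, which blocks a checkpoint receptor on T cells, was injected in both groups from day 7 (10 mg/kg, 2 injections weekly, over 2 weeks), so no untreated tumour enters any comparison. Each group is represented by 1 tumour from 1 mouse, and the libraries are called by their labels, vector and SPP1. The transgene was carried by the tumour cells, while the phagocytes came from the host.

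Members were chosen in 2 steps. A phagocyte gate kept cells with at least 2000 unique molecular identifiers (UMIs, each standing for 1 captured transcript), at most 15% mitochondrial UMIs, at least 4 of the 9 genes Lyz2, Ctss, Cybb, Csf1r, Ms4a7, Mrc1, C1qa, Tyrobp and Fcer1g, at most 2 UMIs of the 4 tumour-cell genes Hmga2, Sox9, Tafa1 and Hoxa9, and no UMI of the T cell genes Cd3e and Cd3d. Gated cells with at least 20 Spp1 UMIs per 10,000 UMIs were the members, called Spp1-high here, and those under 2 per 10,000 were called Spp1-low. There were 449 Spp1-high cells among 1407 gated cells and 28346 barcodes. In the vector-labelled library 242 of 810 gated cells were Spp1-high and 252 were Spp1-low, and in the SPP1-labelled library the numbers were 207 of 597 and 159. The 547 gated cells between the thresholds are used only where levels are followed along Spp1.

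Spp1 encodes osteopontin, a secreted phosphoprotein of bone and of inflamed tissue whose receptors include CD44 and integrins. Macrophages that express it have been described in many tumours, colorectal cancer among them, where they are often set apart from macrophages rich in complement C1q genes. Genes that such cells have been described with include those of hypoxia, glycolysis, matrix breakdown and lipid uptake. Arginase 1, a further gene of interest here, breaks down arginine and is a common marker of tumour macrophages in mice.

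The Spp1-high cells had a median of 8592 UMIs in the vector-labelled library and 7953 in the SPP1-labelled library, against 6978 and 7243 in the Spp1-low cells. Median mitochondrial shares were 1.56% and 1.93% in Spp1-high cells and 1.70% and 1.95% in Spp1-low cells. Of 93 barcodes that occur in both libraries none was gated in both, and 2 members of the vector-labelled library and 1 of the SPP1-labelled library carried such a barcode. The label was checked on 8 macrophage genes that the gate did not use, among them Adgre1 (F4/80), Cd68 and Mertk. Their summed level, with Itgam included, was 4248 and 4183 CPM (the usual scaling of a gene's UMIs by the total of its class) in Spp1-high cells and 3627 and 3845 CPM in Spp1-low cells, and none of the 8 was called different between the classes under the rule given further on. Itgam, which encodes CD11b, was listed at 0 in all 4 sums, as were the neutrophil genes S100a9 and Ly6g. Whether the annotation used upstream counts these genes was not settled, so a 0 is not read as absence of the transcript or of neutrophils. Summed T cell markers stood at 3.75 and 9.13 CPM in Spp1-high cells, a sum lowered by the gate, which allowed no UMI of Cd3e and Cd3d. The conventional dendritic cell list stood at 9.38 and 10.3 CPM and the migratory one at 10.8 and 9.70 CPM.

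Spp1 itself, on which the cells were selected, is given as a description only. The median Spp1-high cell held 39.8 Spp1 UMIs per 10,000 in the vector-labelled library (range 20.2 to 432) and 44.4 in the SPP1-labelled library (range 20.2 to 508). The threshold ran through a continuous distribution, with 46 and 41 members between 20 and 25 per 10,000 and 42 and 33 gated cells between 15 and 20 just outside it. The lowest members stood at 20.2 in both libraries and the highest cells left out at 19.9 and 19.7. As a summed level, Spp1 was 5930 and 6420 CPM in Spp1-high cells, 823 and 870 CPM between the thresholds, and 52.0 and 36.8 CPM in Spp1-low cells. In cells with at least 10 UMIs of the 4 tumour-cell genes it was 161 and 149 CPM, so Spp1-low cells lay below the level of the tumour-cell class and Spp1-high cells far above it. The Spp1-high cells made up 1.69% and 1.48% of all barcodes and held 26.8% and 27.3% of all Spp1 UMIs of their library.

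**Figure D1:**
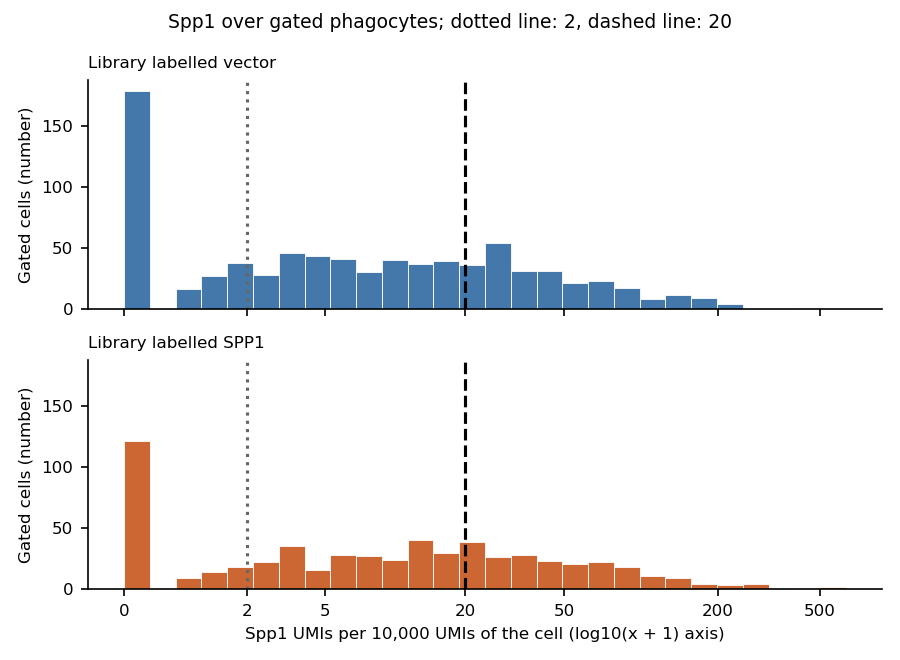
Number of gated cells by Spp1 UMIs per 10,000 UMIs of the cell, on a log10(x + 1) axis, in the vector-labelled library (top, 810 cells) and SPP1 (bottom, 597 cells). The dotted line marks 2 and the dashed line 20 per 10,000; cells lie on both sides of the dashed line with no gap, and members reach 432 and 508.

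Between Spp1-high and Spp1-low cells, UMIs were summed per library and class and fitted with the library as a block, leaving Spp1 and the 15 other genes used by the gate out of the fit and Spp1 out of the library size. CPM in these comparisons are therefore taken over the UMIs of a class without Spp1. Of 9626 genes tested, 254 (2.64%) were called higher in Spp1-high cells and 206 (2.14%) lower, at an adjusted p under 0.05 by edgeR's quasi-likelihood test and at least 1.5-fold. The fit has 4 sums from 2 animals, which belong to different groups, so its spread is partly borrowed from other genes and each library's own values are given first. DESeq2 called 74 higher and 45 lower on the same sums. Its filter on low counts left 4666 of the 9626 genes without an adjusted p, 57 of the 254 and 86 of the 206 among them, and such genes are not counted as lost calls. Among the genes that stood out were the glycoprotein gene Gpnmb, the proton pump subunit Atp6v0d2 and the matrix proteases Mmp12 and Mmp13 on the higher side, and the chemokine Ccl17, the monocyte gene Plac8 and the decoy receptor Il1r2 on the lower side. The median log2 ratio over all genes tested was 0.01. The counts of list genes called, given below, stand beside the shares of 2.64% higher and 2.14% lower. A single call in a short list is not read as a result about that list.

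**Figure D2:**
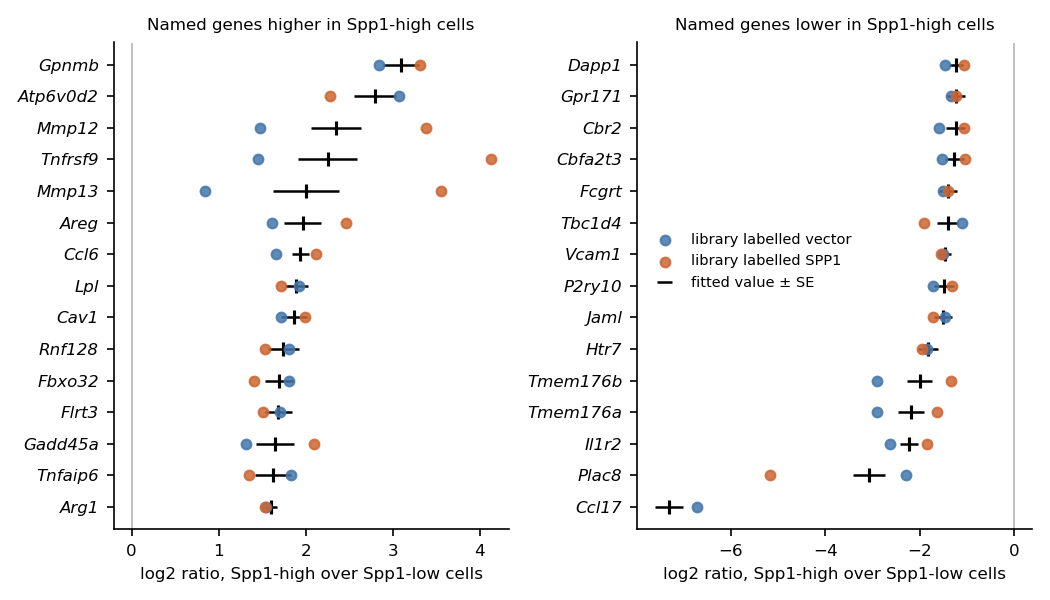
Log2 ratio of Spp1-high over Spp1-low cells for the 15 named genes higher (left) and the 15 lower (right) in Spp1-high cells. Points are the ratio within each library, and the black bars the fitted value with its standard error; Ccl17 has no point for the SPP1-labelled library, where Spp1-high cells held 0 UMIs. A gene had to differ by 1.5-fold in each library to be shown, so that the points lie on 1 side of 0 is given by the choice; Mmp13, Tnfrsf9 and Plac8 have the widest gap between them.

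Genes of lipid handling were higher in Spp1-high cells in 11 of 18 tested and lower in none, with a median log2 ratio of 0.66. DESeq2 called 6 of the 10 for which it gave an adjusted p, and 5 of 17 were called without cell cycle cells. Gpnmb, a transmembrane glycoprotein of lysosome-rich macrophages, stood at 88.7 and 114 CPM (vector, SPP1) in Spp1-high cells and at 12.3 and 11.4 CPM in Spp1-low cells, 8.55-fold higher in the fit (log2 3.10, SE 0.21, adjusted p = 4.8e-06). Both Spp1-high values lay well above both Spp1-low values, although 30.2 and 26.0 CPM were also found in the tumour-cell class. In cells thinned to 2000 UMIs, 11.2% and 11.6% of Spp1-high cells held a Gpnmb UMI, against 1.98% and 2.52% of Spp1-low cells and 6.10% of tumour-cell-class cells in each library. Without thinning the shares were 19.8% and 20.8%, 4.76% and 5.66%, and 31.2% and 26.3%, the last at median depths of 14016 and 13054 UMIs. Gpnmb was thus detected in a minority of the Spp1-high cells.

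Lpl, the lipoprotein lipase that frees fatty acids from triglycerides, stood at 215 and 143 CPM against 56.9 and 43.3 CPM (log2 1.89, SE 0.13, adjusted p = 6.7e-06). The fatty acid binding protein gene Fabp5 was at 504 and 336 CPM against 193 and 157 CPM, and its relative Fabp4 at 34.2 and 54.2 CPM against 13.4 and 3.27 CPM, both called higher. Lgals3 (galectin-3), Cd9, the scavenger receptors Cd36, Olr1 and Msr1, and the cholesterol exporter Abcg1 were also called higher, by 0.65 to 1.16 on the log2 scale. Trem2, a lipid-sensing receptor, was 177 and 200 CPM against 122 and 126 CPM (log2 0.65, SE 0.11, adjusted p = 0.0039), and it lost its call under 5 alternatives, among them DESeq2 and leaving out cells with dendritic markers (log2 0.52). Apoe, the apolipoprotein of cholesterol transport, was not called, with 1982 and 3108 CPM against 2071 and 3507 CPM.

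The label genes of these cells were Spp1, Lyz2, Csf1r and Arg1. Lyz2 and Csf1r were used by the gate and are given as a description only. Lyz2 was at 7191 and 8172 CPM in Spp1-high cells against 4120 and 5422 CPM in Spp1-low cells. Csf1r went the other way, at 360 and 425 CPM against 450 and 541 CPM. Arg1 is a label gene that the gate and the threshold did not use. It stood at 2348 and 2367 CPM in Spp1-high cells and at 804 and 815 CPM in Spp1-low cells (log2 1.60, SE 0.07, adjusted p = 1.0e-07), with nearly the same ratio in the 2 libraries, 1.55 and 1.54. The median Spp1-high cell held 18.6 and 15.3 Arg1 UMIs per 10,000, against 1.70 and 2.90 in Spp1-low cells. In thinned cells an Arg1 UMI was found in 79.8% and 76.3% of Spp1-high cells, in 42.1% and 47.2% of Spp1-low cells and in 0.90% and 1.40% of the tumour-cell class. Of the arginine and alternative activation list 4 of 12 tested genes were called higher and 1 lower. Besides Arg1 these were Arg2, the cationic amino acid transporter Slc7a2 and the inducible nitric oxide synthase Nos2, which uses the same substrate as arginase and stood at 35.7 and 27.4 CPM against 6.98 and 5.72 CPM. The lectin gene Mgl2, often used as a mark of alternative activation, was the gene called lower, with 121 and 108 CPM against 218 and 169 CPM. Mgl2 lost that call with DESeq2 (adjusted p = 0.095) and without cells carrying dendritic markers (log2 -0.37, adjusted p = 0.10). Arg2 lost its call with DESeq2 (adjusted p = 0.65), which gave none for Nos2.

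Matrix genes were called higher in 7 of 17 tested and lower in none, with a median log2 ratio of 0.55. Of the 5 for which DESeq2 gave an adjusted p it called 1, Fn1, with adjusted p = 0.11 for Mmp12 and 0.58 for Mmp13, and 4 of 16 were called without cell cycle cells. Mmp12, the macrophage elastase, stood at 1093 and 1406 CPM in Spp1-high cells and at 392 and 135 CPM in Spp1-low cells (log2 2.35, SE 0.29, adjusted p = 0.00034). The ratio was larger in the SPP1-labelled library (log2 3.38) than in the vector-labelled library (1.48), and the difference rests on 1 animal each and was not tested. Thinned cells with an Mmp12 UMI made up 42.1% and 30.9% of Spp1-high cells, 19.0% and 11.3% of Spp1-low cells and 0.60% and 0.50% of the tumour-cell class. Mmp13, a collagenase, was at 167 and 414 CPM against 92.8 and 35.1 CPM (log2 2.01, SE 0.38, adjusted p = 0.0064), with 57.4% of the UMIs of the SPP1-labelled library in 3 Spp1-high cells. Fn1, the fibronectin gene, was at 1947 and 2850 CPM against 1080 and 1078 CPM (log2 1.18, SE 0.11, adjusted p = 3.5e-05). The collagenase Mmp8, the protease Mmp19, the proteoglycan genes Vcan and Sdc1 completed the 7. Thbs1, the thrombospondin gene, passed the adjusted p but not 1.5-fold, at 1254 and 1381 CPM against 982 and 884 CPM.

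Promoters were read for the named genes to show which short motifs lie at their starts; the motifs, among them the site of AP-1, the Fos and Jun family of transcription factors, were picked with the genes already known. RefSeq windows of 300 bases (250 before to 50 after the gene start, build GRCm38.p6, which is not the build of the counts) were found for 11 of the 15 named higher genes and 13 of the 15 named lower genes, and Atp6v0d2, Lpl, Fbxo32, Arg1, Vcam1 and Gpr171 had none. The motif TGANTCA, the AP-1 site read on both strands, occurred in 5 of 11 windows of higher genes (45.5%), in 0 of 13 windows of lower genes, and in 7.79% of 32544 windows of all genes. The 5 stretches are printed 5′ to 3′ with the motif in capitals to show how near the start it lies.
Gpnmb, chr6:49036516-49036542 (+), 9 bases after the start: caggggcaagTGACTCAtgagcacgag
Mmp12, chr9:7347320-7347346 (+), 44 bases before the start: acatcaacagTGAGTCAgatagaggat
Tnfrsf9, chr4:150927974-150928000 (+), 15 bases before the start: cctgctcagtTGAGTCAcaggtcctgt
Mmp13, chr9:7272469-7272495 (+), 35 bases before the start: cccaaagtggTGACTCAtcactatcat
Tnfaip6, chr2:52037961-52037987 (+), 142 bases before the start: ccaatgcaaaTGAGTCAgagggcttgc
The other 2 motifs were searched in the same windows. The E-box CACGTG was in 0 of 11 windows of higher genes, 1 of 13 of lower genes and 7.17% of all windows. The core ACGTG, which the E-box holds and hypoxia factors bind, was in 1 of 11, in 2 of 13 and in 19.7%. These are letter matches and no measure of binding, and the genes were chosen on these data, so no test was made.

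Genes of glycolysis were called higher in 10 of 15 tested and lower in none, with a median log2 ratio of 0.67. DESeq2 called 7 of the 10 and the fit without cell cycle cells 3. Their summed level was 5459 and 5377 CPM in Spp1-high cells against 3625 and 3538 CPM in Spp1-low cells. The glucose transporter Slc2a1 was at 202 and 198 CPM against 107 and 113 CPM (log2 0.92, SE 0.11, adjusted p = 0.00037). The phosphoglycerate kinase Pgk1 was at 623 and 549 CPM against 357 and 321 CPM (log2 0.84, SE 0.09, adjusted p = 9.5e-05). Aldoa, Tpi1, Gapdh, Pgam1, Eno1, Pkm, the hexokinase Hk1 and the lactate exporter Slc16a3 were the others, at log2 ratios from 0.59 to 0.78. Ldha, which makes lactate, passed the adjusted p at a log2 ratio of 0.54, short of 1.5-fold, and the hexokinase Hk2 was not called. The change was thus spread over the pathway and small for each gene. Against all gated cells under 20 per 10,000, which include those between the thresholds, 2 of the 15 were called and the median was 0.49. Beside this, the tumour marker list summed to 500 and 593 CPM in Spp1-high cells and 523 and 597 CPM in Spp1-low cells, and none of its 6 tested genes was called.

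Genes of the response to low oxygen were called higher in 10 of 17 tested and lower in none (median log2 0.73), with 7 of 9 called by DESeq2 where it gave an adjusted p, and 4 of 16 without cell cycle cells. Vegfa, the angiogenic growth factor, stood at 562 and 516 CPM against 396 and 282 CPM (log2 0.73, SE 0.10, adjusted p = 0.00085). Without cell cycle cells its adjusted p was 0.12 (log2 0.53). It also fell short of 1.5-fold without dendritic-marker cells (log2 0.58) and among cells with no UMI of the 4 tumour-cell genes (log2 0.56). Tumour-class cells also carried it, with a UMI in 40.4% and 41.2% of thinned cells against 50% and 51.2% of Spp1-high and 37.7% and 31.4% of Spp1-low cells. Hilpda, a lipid droplet protein induced by low oxygen, was at 302 and 291 CPM against 100 and 149 CPM (log2 1.34, SE 0.14, adjusted p = 0.00011). The oxygen sensors Egln3 and Egln1, the mitophagy gene Bnip3, Ndrg1, Ero1a, Ankrd37, Mif and the collagen hydroxylase P4ha2 were called with it. Hif1a itself, the oxygen-regulated transcription factor, was not, at 548 and 518 CPM against 523 and 467 CPM.

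Growth factor genes were called higher in 4 of 13 tested, Vegfa among them, and lower in none. Without cell cycle cells 1 of 11 was called, and among cells with no tumour-cell gene UMI 2 of 12. Areg (amphiregulin), a ligand of the epidermal growth factor receptor, was at 85.4 and 81.0 CPM against 27.9 and 14.7 CPM (log2 1.97, SE 0.21, adjusted p = 0.00016). Few cells carried it, with an Areg UMI in 9.50% and 9.18% of Spp1-high cells and 5.16% and 4.4% of Spp1-low cells, unthinned. Inhba, a subunit of activin, was at 137 and 69.6 CPM against 42.4 and 36.8 CPM, and Csf1 at 10.8 and 12.0 CPM against 3.22 and 4.09 CPM. Tgfb1 was not called, at 93.8 and 95.9 CPM against 98.2 and 101 CPM.

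Inflammatory genes were called higher in 7 of 16 tested and lower in none, yet Il1b was not among them. DESeq2, the fit without cell cycle cells and the fit on cells with no tumour-cell gene UMI each called 4 of the 16. Il1b, the main secreted interleukin-1, was at 1263 and 943 CPM in Spp1-high cells and 1998 and 1097 CPM in Spp1-low cells (log2 -0.39, SE 0.09, adjusted p = 0.026, short of 1.5-fold). Its relatives Il1a and the receptor antagonist Il1rn were called higher, the latter at 417 and 412 CPM against 197 and 200 CPM (log2 1.12). The neutrophil-attracting chemokines Cxcl1 and Cxcl3, the lectin receptors Clec4d and Clec4e and the amplifier Trem1 were the others. Tnf was not called, at 135 and 172 CPM against 149 and 202 CPM. Tnfrsf9 (4-1BB), a costimulatory receptor better known on T cells, stood at 107 and 128 CPM against 39.2 and 7.35 CPM (log2 2.25, SE 0.34, adjusted p = 0.0014, but 0.27 with DESeq2). T cell markers summed to under 10 CPM in both classes, but the gate had allowed no UMI of Cd3e and Cd3d on that list. The cell type behind the Tnfrsf9 UMIs was not tested. Outside the lists, the caveolin gene Cav1 (146 and 107 CPM against 44.5 and 27.0 CPM), Rnf128, Fbxo32, Flrt3, Gadd45a and Tnfaip6 were the remaining named higher genes, at log2 ratios from 1.62 for Tnfaip6 to 1.87 for Cav1.

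Chemokine genes went both ways, with 2 of 16 called higher and 3 lower, namely Cxcl9, Ccl8 and Ccl22. The 2 higher calls were kept by DESeq2 and without cell cycle cells. No lower call was: Cxcl9 and Ccl8 lost theirs under both, and Ccl22 had no adjusted p with DESeq2 and was not tested without cell cycle cells. Ccl6, a macrophage chemokine found in rodents, was at 2194 and 2385 CPM against 694 and 550 CPM (log2 1.94, SE 0.10, adjusted p = 5.0e-07), and its neighbour Ccl9 at 910 and 943 CPM against 443 and 459 CPM (log2 1.09). A Ccl6 UMI was seen in 90.1% and 88.9% of Spp1-high cells and in 68.3% and 70.4% of Spp1-low cells. The interferon-induced T cell chemokine Cxcl9 was lower, at 359 and 200 CPM against 476 and 664 CPM (log2 -0.97, SE 0.21, adjusted p = 0.014, but 0.90 with DESeq2). Most of that came from the SPP1-labelled library, where the log2 ratio was -1.73 against -0.41 in the vector-labelled library. Thinned cells with a Cxcl9 UMI were 18.6% and 10.1% of Spp1-high cells, 24.6% and 26.4% of Spp1-low cells and 4.90% and 4.60% of the tumour-cell class. Ccl8 was at 269 and 144 CPM against 355 and 523 CPM, with adjusted p = 0.018, but 0.92 with DESeq2 and 0.71 without cell cycle cells. Genes of the wider interferon response showed no common direction, with 2 of 18 higher (Ifit2 and Rsad2) and 2 lower (Cxcl9 and Gbp7), and DESeq2 called none of these 4.

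Among lysosome genes 2 of 17 tested were called higher and none lower, with a median log2 ratio of 0.30. Ctsl, the protease cathepsin L, was at 820 and 780 CPM in Spp1-high cells in the 2 libraries and at 289 CPM in Spp1-low cells of both (log2 1.52, SE 0.08, adjusted p = 1.1e-06). Atp6v0d2, a proton pump subunit known from osteoclasts, was at 85.8 and 59.4 CPM against 10.2 and 12.3 CPM (log2 2.80, SE 0.24, adjusted p = 2.5e-05). It was the only gene called among 7 tested osteoclast-type genes. The osteoclast genes Oscar and Calcr were listed at 0, which is not read as absence here either. Cathepsin B (Ctsb) and Cd68 passed the adjusted p at log2 ratios of 0.54 and 0.55, short of 1.5-fold. Of the iron genes, haem oxygenase Hmox1 (317 and 180 CPM against 126 and 113 CPM) and the ferritin genes Fth1 and Ftl1 were called higher, and the haemoglobin scavenger receptor Cd163 lower, at 1.41 and 1.14 CPM against 8.05 and 8.99 CPM and with no adjusted p from DESeq2.

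Genes of antigen presentation by MHC class II were lower in 10 of 12 tested and higher in none, with a median log2 ratio of -0.82. All 12 lay below 0 in both libraries. H2-Ab1, a chain of the class II molecule, was at 1658 and 966 CPM in Spp1-high cells against 3217 and 2094 CPM in Spp1-low cells (log2 -0.98, SE 0.07, adjusted p = 6.7e-06). H2-Aa, H2-Eb1 and the invariant chain Cd74 went the same way, Cd74 at 4148 and 2751 CPM against 6113 and 4544 CPM. Ciita, the transcriptional master switch of these genes, stood at 20.2 and 17.1 CPM against 70.8 and 46.6 CPM (log2 -1.61, SE 0.21, adjusted p = 0.0005). The costimulatory ligand Cd86 was at 565 and 684 CPM against 994 and 1097 CPM, and Cd40 and Cd83 were not called. DESeq2 called 7 of the 8 for which it gave an adjusted p, and the fit with no replicate block 6. In thinned cells an H2-Ab1 UMI was seen in 70.2% and 48.8% of Spp1-high cells, in 80.2% and 61.0% of Spp1-low cells and in 11.7% and 11.6% of the tumour-cell class.

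Dendritic cells express these genes strongly and passed the gate in small numbers. Cells with at least 3 UMIs of the dendritic marker lists were 17 and 17 of the Spp1-low cells (6.75% and 10.7%) and 1 and 1 of the Spp1-high cells. The conventional dendritic list summed to 91.8 and 92.3 CPM in Spp1-low cells and 9.38 and 10.3 CPM in Spp1-high cells, and the migratory list to 149 and 60.5 CPM against 10.8 and 9.70 CPM. The 4 conventional genes tested, Cd209a, Zbtb46, Batf3 and Itgae, were all called lower, as were Ccl22 and Ccr7, and DESeq2 gave none of the 6 an adjusted p. Without cells that carried at least 3 such UMIs, a setting added after the data were seen, 7 of 10 MHC class II genes were still called lower and the median log2 ratio was -0.70. Ccl17, the most strongly lower of the named genes, was at 2.35 and 0 CPM against 247 and 193 CPM, and the 3 highest Spp1-low cells held 50.2% and 53.4% of its UMIs. Ccl17 is a dendritic cell chemokine. It kept its call without the cells that carried at least 3 dendritic marker UMIs. Over all 16 alternatives its weakest log2 ratio was -5.47. Cells with fewer such UMIs stayed in that fit, and the part of dendritic cells in the difference was not tested further.

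Genes of resident-type macrophages were lower in 8 of 15 tested and higher in none (median log2 -0.59). Cbr2, Fcgrt, Fcrls, Selenop, Ms4a6c, Ccl8, Cd163 and Lyve1 were the 8. DESeq2 called 4 of the 6 for which it gave an adjusted p, and 1 of 13 was called without cell cycle cells. Selenop, a secreted selenium carrier, was at 518 and 611 CPM against 793 and 1038 CPM. The lymphatic and perivascular macrophage gene Lyve1 had 0 UMIs in the Spp1-high cells of both libraries, against 10.2 and 9.81 CPM in Spp1-low cells. Folr2, another gene of tissue macrophages, was not called, and its libraries went opposite ways, at 52.1 and 77.1 CPM against 45.6 and 97.2 CPM. The complement genes C1qb and C1qc were not called either, with log2 ratios of 0.05 and -0.04. Vcam1, an adhesion molecule, was at 64.3 and 50.2 CPM against 184 and 146 CPM (log2 -1.47, SE 0.13, adjusted p = 2.4e-05).

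Monocyte genes went both ways, with 2 of 9 called higher and 2 lower. Plac8 was at 27.7 and 4.57 CPM against 135 and 163 CPM (log2 -3.07, SE 0.35, adjusted p = 0.00021, but 0.073 with DESeq2), and Ly6c2 at 7.51 and 0 CPM against 33.8 and 34.3 CPM. A Plac8 UMI was found in 11.5% and 12.0% of Spp1-low cells, and the 3 highest cells held 43.3% and 52.0% of its UMIs there. S100a6 and Cd300lf were higher, the latter with adjusted p = 0.29 by DESeq2, and the monocyte chemokine receptor Ccr2 was not called, at 489 and 389 CPM against 626 and 413 CPM. The membrane genes Tmem176a and Tmem176b and the decoy receptor Il1r2 were lower by 2.00 to 2.22 on the log2 scale, and Tmem176b had adjusted p = 0.11 with DESeq2. The other named lower genes were the serotonin receptor gene Htr7, Jaml, P2ry10, Tbc1d4, Cbfa2t3, Gpr171 and Dapp1, at log2 ratios from -1.83 for Htr7 to -1.23 for Dapp1. P2ry10, Tbc1d4 and Cbfa2t3 lost their call without dendritic-marker cells, the last at a log2 ratio of -0.44. Gpr171 lost it with DESeq2 (adjusted p = 0.095) and Dapp1 without cell cycle cells (adjusted p = 0.19).

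Receptors of osteopontin were measured in the same cells. Of 8 tested, 1 was called lower and none higher, beside 2.14% lower and 2.64% higher over all genes tested. The list held 12 genes, and those with too few UMIs were not tested. The integrin chain Itgb3 was among these, with 2 and 1 UMIs (vector, SPP1) in Spp1-high cells and 2 and 1 in Spp1-low cells. Cd44 was at 1800 and 1804 CPM in Spp1-high cells and 1660 and 1533 CPM in Spp1-low cells (log2 0.23, SE 0.07, adjusted p = 0.07). The integrin chains Itgav, Itgb1 and Itgb5 had log2 ratios of -0.07, 0.19 and -0.13 and were not called. Itga9 was lower, at 55.8 and 51.9 CPM against 82.6 and 95.6 CPM (log2 -0.66, adjusted p = 0.021, but 0.55 with DESeq2), and Itga4 had a log2 ratio of -0.50, short of 1.5-fold. Itga5 went opposite ways in the 2 libraries, at 91.0 and 83.9 CPM against 64.4 and 98.9 CPM.

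Checkpoint ligand genes were not called higher, and 1 of 11, the inhibitory lectin Siglece, was called lower, with no adjusted p from DESeq2. Over all genes tested 2.64% were called higher and 2.14% lower, which stands beside the other counts of this paragraph too. Cd274, which encodes the PD-1 ligand PD-L1, was at 234 and 211 CPM against 181 and 169 CPM (log2 0.40, SE 0.10, adjusted p = 0.039, short of 1.5-fold). Of 23 transcription factor genes 1 was called, Bhlhe41, at 32.8 and 55.9 CPM against 16.6 and 22.1 CPM (adjusted p = 0.0056, but 0.27 with DESeq2). None of 14 cell cycle genes was called, and cells with at least 3 cell cycle UMIs made up 48.8% and 56.5% of Spp1-high cells and 49.2% and 53.5% of Spp1-low cells. Of 14 genes induced by dissociation 2 were called higher, the heat shock genes Hspa1a and Hspa1b, and 1 lower, Jun, at 343 and 529 CPM against 679 and 872 CPM. Their part in the differences between the classes was not tested.

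Levels were also followed along Spp1 over 6 bins of gated cells, as a description. Arg1 stood at 804, 1056, 1292, 1564, 1803 and 3234 CPM from the lowest to the highest bin in the vector-labelled library. In the SPP1-labelled library it stood at 815, 1067, 1751, 1681, 2041 and 2747 CPM. Cathepsin L moved mainly at the top, from 353 CPM at 10 to 20 Spp1 UMIs per 10,000 to 620 and 1146 CPM in the next bins of the vector-labelled library, and from 463 to 657 and 922 CPM in the other. The summed glycolysis list was higher in each successive bin of both libraries, going from 3625 to 6008 CPM and from 3538 to 5632 CPM, and cells between the thresholds held values in between. H2-Ab1 was at 3217 CPM in the lowest and 1588 CPM in the highest bin of the vector-labelled library, and at 2094 and 835 CPM in the SPP1-labelled library. Cxcl9 had no steady course in either library.

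**Figure D3:**
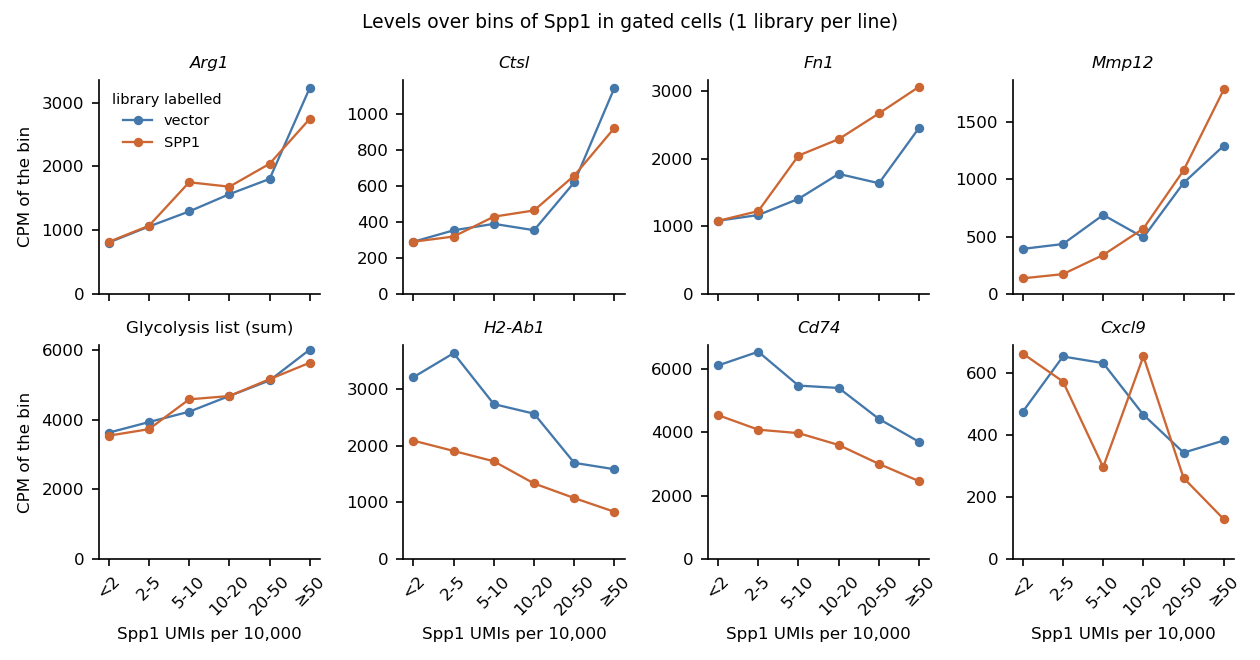
Level in CPM (vertical axes from 0) of 7 genes and of the summed glycolysis list in gated cells binned by Spp1 UMIs per 10,000, with 1 line per library. Arg1, Ctsl, Fn1, Mmp12 and glycolysis are highest in the bin from 50 upwards and H2-Ab1 and Cd74 lowest there, while Cxcl9 goes up and down.

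Gated cells were clustered without Spp1 and the gate genes into 10 clusters, called by number and leading genes. The Spp1-high cells were spread over 9 of them. Cluster 4, led by Mmp9, Atp6v0d2, Gpnmb, Ctsk and Mmp13, held the largest share, with 61 of 99 cells Spp1-high (61.6%, exact binomial interval 51.3 to 71.2) in the vector-labelled library and 46 of 70 (65.7%, 53.4 to 76.7) in the SPP1-labelled library. Cluster 6, led by Retnla and Ear2, had 52.7% and 50%, and cluster 3, led by Areg, Tnfrsf9, Ptgs2 and Il1a, 47.3% and 48.1%. Cluster 9, a small one led by Orai2 and Ndnf, had 2 of 10 cells (20%, 2.52 to 55.6) in the vector-labelled library and 15 of 27 (55.6%, 35.3 to 74.5) in the SPP1-labelled one. Cluster 0, led by the monocyte genes Plac8, Ly6c2 and Chil3, had 14.3% and 20.2%. Cluster 1, led by Ifit3, Gas6, Fcrls, Cbr2 and Folr2, had 15.3% and 27.5%, and cluster 2, led by cell cycle genes, 26.7% and 28.4%. In cluster 7, led by Plet1, Ccl22, Ccl17, Il12b and Cd209a, 0 of 28 and 0 of 16 cells were Spp1-high (upper bounds 12.3% and 20.6%), and its dendritic markers were the highest of all clusters, at 781 CPM for the conventional list. Intervals cover counting error only.

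**Figure D4:**
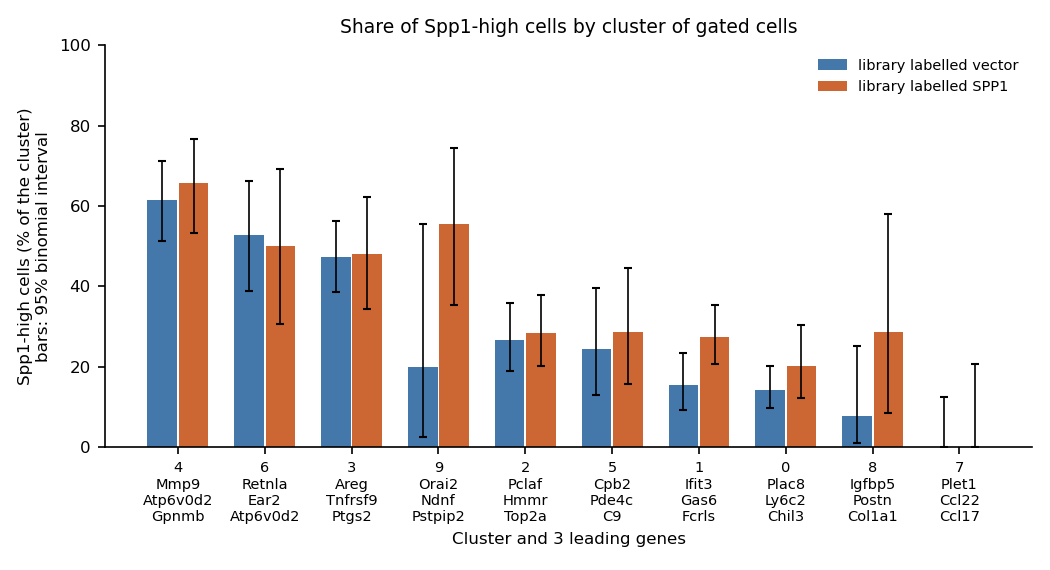
Share of Spp1-high cells, in percent, in each of 10 clusters of gated cells, with bars for the libraries labelled vector and SPP1 and 95% exact binomial intervals (counting error only). Cluster 4 is highest with 61.6% and 65.7%, and cluster 7 has none; the intervals of clusters 8 and 9 are wide because they hold few cells.

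The differences were also read within the 5 clusters that held at least 10 cells of each class in each library, which gives 10 pairs of sums per gene. Arg1, Ccl6, Fn1 and Lpl were higher in Spp1-high cells in 10 of 10 pairs, and Ctsl and Mmp12 in 9. H2-Ab1 and Cd74 were lower in 10 of 10. Pgk1 was higher in 8 of 10, Fabp5 and Vegfa in 7, Gpnmb in 6, Il1b in 4 and Cxcl9 in 3. A pair counts however small its difference, as for Lpl in cluster 3 of the SPP1-labelled library, at 188 against 182 CPM. Clusters 4 and 6 had too few Spp1-low cells to enter. In the monocyte-led cluster 0, Arg1 was at 2138 against 962 CPM in the vector-labelled library and 2653 against 529 CPM in the SPP1-labelled library. In the cell cycle cluster 2, Ccl6 was at 1410 against 342 CPM and 1634 against 334 CPM. These counts are descriptions, since the clusters were made from the same cells and the pairs come from 2 animals. The genes were also read with their differences between the classes already known.

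The study compared tumours of MC38 cells transduced with SPP1 and of MC38 cells transduced with the vector. The tumour-cell class held Spp1 in both libraries, at 161 CPM in the vector-labelled and 149 CPM in the SPP1-labelled library. These counts thus show no higher Spp1 level in the tumour-cell class of the SPP1-labelled library. Whether the counts register transcripts of the transgene was not tested. Spp1-high cells were 29.9% (26.7 to 33.2) of gated cells in the vector-labelled library and 34.7% (30.9 to 38.6) in the SPP1-labelled library, a log2 ratio of 0.21 (-0.01 to 0.43), with 1 animal each and no test across animals. When the threshold was applied to cells thinned to 2000 UMIs the shares were 31.4% and 36.3%. The make-up of the Spp1-high cells by cluster differed between the libraries. Clusters 3, 4 and 6 held 62.8% of them in the vector-labelled library and 41.5% in the SPP1-labelled library. Cluster 1 held 7.02% and 20.3%. The gated cells as a whole differed the same way, so this was not particular to the Spp1-high cells. Clusters 3, 4 and 6 held 285 of 810 and 152 of 597 gated cells, and cluster 1 held 111 and 153.

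Within Spp1-high cells, the libraries were close for most genes. Of 5305 genes with at least 100 UMIs, 21 (0.396%) were past 1.5-fold higher in the SPP1-labelled library and 20 (0.377%) lower, counting a gene when its whole 95% interval lay past that ratio. The median size of the log2 ratio was 0.19. The interval covers counting error only, so the numbers compare 2 libraries and not 2 conditions. Arg1 (2348 and 2367 CPM), Gpnmb (88.7 and 114 CPM), Trem2 (177 and 200 CPM) and Vegfa (562 and 516 CPM) were not past 1.5-fold. None of the glycolysis, hypoxia, lysosome or osteopontin receptor genes measured here was past 1.5-fold either.

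Higher in the SPP1-labelled library were Gem, a small GTPase (72.5 against 12.7 CPM), the chemokines Ccl5, Ccl4 and Ccl3, the collagen gene Col14a1, the Fc receptor-like gene Fcrls, and the interferon-induced genes Isg15 and Cmpk2. Ccl4 was at 1022 against 355 CPM (log2 1.52, 1.40 to 1.65), and in Spp1-low cells at 1017 against 527 CPM (log2 0.95, 0.82 to 1.07), so the difference lay in both classes. Fcrls and Col14a1 were likewise higher in Spp1-low cells of that library, by 1.05 and 1.01 on the log2 scale. Gem was not, with a log2 ratio of -0.20 (-1.19 to 0.74) in Spp1-low cells. Ccl5 and Cmpk2 rest on few cells, since 3 Spp1-high cells held 73.8% and 83.7% of their UMIs in the SPP1-labelled library. Without the 3 highest cells of each library the log2 ratio of Cmpk2 went from 1.52 to -0.030, and that of Mmp13 from 1.31 to 0.68. Ccl5 went from 2.27 to 1.68 and so stayed higher, and Isg15 stood at 0.99.

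Lower in the SPP1-labelled library were Cd36 (69.1 against 158 CPM), Inhba (69.6 against 137 CPM), Ms4a4c, Arhgap6, Mtmr12, Carmil1 and the class II genes H2-Aa and H2-Eb1. H2-Aa was at 1260 against 2409 CPM (log2 -0.94, -1.01 to -0.86), and in Spp1-low cells at 2613 against 4168 CPM (log2 -0.67, -0.73 to -0.61). Of 9 class II genes measured, 3 were past 1.5-fold lower in Spp1-high cells, with a median log2 ratio of -0.48 beside -0.43 in Spp1-low cells. The lower class II level of the SPP1-labelled library was therefore found in gated cells of both classes. Ms4a4c and Inhba had intervals that included 0 in Spp1-low cells. Col1a1 and Col1a2 were also past 1.5-fold lower, but 3 Spp1-high cells of the vector-labelled library held 92.5% and 66.7% of their UMIs, and 8 and 5 Spp1-high cells carried at least 3 fibroblast marker UMIs.

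**Figure D5:**
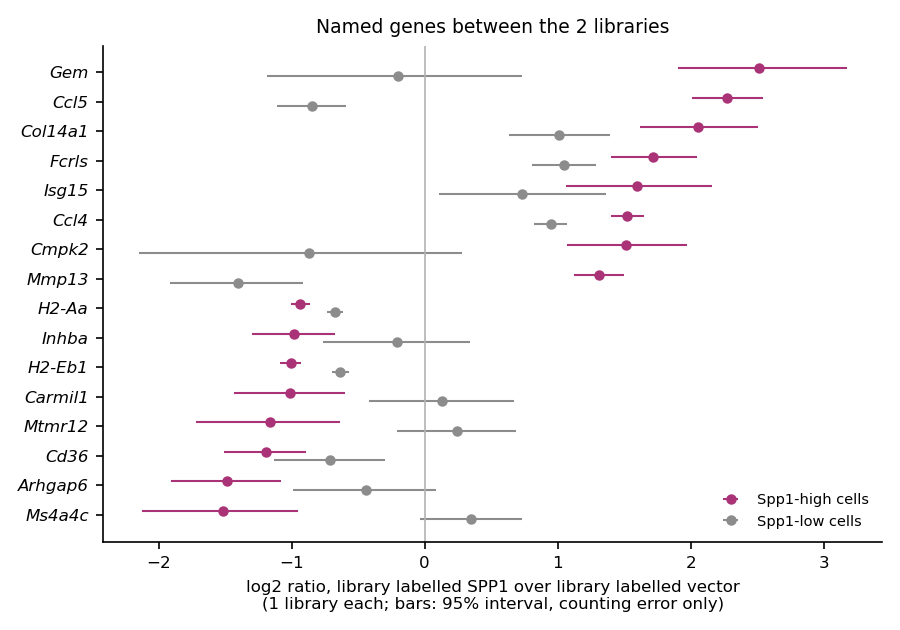
Log2 ratio of CPM, SPP1-labelled over vector-labelled library, for the 16 named genes in Spp1-high cells (coloured) and Spp1-low cells (grey), with 95% intervals that cover counting error only and 1 library per group. Ccl4, Fcrls and Col14a1 lie above 0 and H2-Aa, H2-Eb1 and Cd36 below 0 in both classes, whereas Ccl5 and Mmp13 lie on opposite sides.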

How the data were processed

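The authors deposited unnormalized UMI counts for each gene in each barcode, made with Cell Ranger 2.1.1 on build GRCm39, per the submitters' processing notes, and checked here to be whole numbers. Libraries held 14317 and 14029 barcodes, with a median of 10277 and 10218 UMIs. Whether doublets or free RNA were removed upstream is not given in the sources used here. The members and gene lists were chosen with earlier results of these data known. Counts were summed per library and class (4 sums, 2 animals) and tested with edgeR 4.0.16 (quasi-likelihood, TMM, filterByExpr, library as a block, Benjamini-Hochberg), called at an adjusted p under 0.05 and 1.5-fold. The fit was also run on simulated counts. These had the same fixed spread for every gene and no difference between animals, so that run does not measure the error of the p-values given here. With 1 library per group, differences between libraries have exact conditional binomial intervals and shares exact binomial (Clopper-Pearson) intervals, all 95% and for counting error only. Named were the 15 called genes each way with the largest log2 ratio, at least 50 CPM in the higher class and 1.5-fold in each library. Between libraries up to 8 each way were named, and a fixed set with up to 4 of each list, from which the text gives some; other list members were named after their values were seen. Mitochondrial, ribosomal, clone-named and like genes and those under 10% of the level of the tumour-cell class were left out. Gated cells were clustered with scanpy 1.11.5 (Leiden, resolution 0.8, 2000 variable genes, 20 components, 20 neighbours). Doublets were predicted by Scrublet's method and kept (0 and 3 of the Spp1-high cells), with removal as an alternative. DESeq2 1.42.0, RLE scaling, no filter, other thresholds and gates, thinning and removal of marked cells were also alternatives.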

Additional observations from a re-analysis of the deposited data

Results flagged for a closer look

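The 4 genes listed here were past 1.5-fold between the libraries in Spp1-high cells and moved the opposite way in Spp1-low cells, with both counting intervals clear of 0. Ccl5 had a log2 ratio (SPP1-labelled over vector-labelled library) of 2.27 (2.01 to 2.54) in Spp1-high cells and -0.85 (-1.11 to -0.59) in Spp1-low cells. Mmp13 had 1.31 (1.12 to 1.5) and -1.40 (-1.92 to -0.91). Cxcl9 had -0.84 (-1.03 to -0.66) and 0.48 (0.34 to 0.62), and Ccl8 had -0.90 (-1.12 to -0.69) and 0.56 (0.40 to 0.72). Each class has 1 library per group, so the difference was not tested. In the Spp1-high cells, 3 cells held 60.0% and 73.8% of the Ccl5 UMIs (vector, SPP1), 33.1% and 57.4% of those of Mmp13, 25.2% and 41.9% of those of Cxcl9 and 47.4% and 35.3% of those of Ccl8. In the Spp1-low cells, 3 cells held 50.9% and 46.5% of the 173 and 43 Mmp13 UMIs. For Cxcl9 these shares were 21.3% and 30.1%. The counting intervals take no account of such concentration in few cells.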

How the results depend on the processing

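All 30 named genes kept their direction under the 16 alternatives with a test, and 16 kept their call under each of them. The 30 were chosen as called genes at least 1.5-fold the same way in each library. The alternatives refit the same sums or overlapping sets of the same cells, so a kept direction was largely given by the choice. Of the 14 that lost it somewhere, 8 did so under DESeq2 and 7 without cells carrying at least 3 cell cycle UMIs. The setting without cell cycle cells kept 124 and 90 Spp1-high cells (vector, SPP1), and that with no tumour gene UMI 128 and 94. The cause of the lost calls was not tested. The counts of 254 higher and 206 lower genes became 74 and 45 with DESeq2, 169 and 136 with no replicate block, 155 and 108 with cells that had no UMI of the 4 tumour genes, 67 and 44 without cell cycle cells and 164 and 112 after thinning to 2000 UMIs. Other settings stayed within 1.5 times the main count. DESeq2 gave no adjusted p for 57 of the 254 and 86 of the 206. The size of an adjusted p moved widely between settings: for Mmp12 it ran from 3.3e-151 (members from 10 per 10,000) to 0.11 and for Cxcl9 from 1.8e-23 (against all gated cells under 20) to 0.90, the upper values with DESeq2, and the cause was not tested. Leaving out either library gives values and no test, since no residual degrees of freedom are left. The limit of 10% mitochondrial UMIs kept the same cells. The share of Spp1-high cells was 42.6% and 49.6% from 10 per 10,000 and 14.7% and 19.4% from 40. Genes past 1.5-fold between libraries were 10 higher and 13 lower from 40 per 10,000, 6 and 7 after thinning, and 8 lower from 10 per 10,000. Cmpk2 turned to -0.85 from 40 per 10,000 and to -0.030 without its 3 highest cells, on the log2 scale. The labels pair no replicates beyond the library itself. Depth limits genes under about 50 CPM, which rest on few UMIs.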
